A study of Phyllotreta striolata with 15 samples.

Results

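The genes described are those whose transcripts were high in female adults only in Phyllotreta striolata, the striped flea beetle, a pest of cabbage and related crops. A gene was a member when its mean level in female adults was at least 2 TPM (a transcript level scaled for gene length and library total) and at least 5 times the highest of the means in eggs, larvae, pupae and male adults. This held for 87 of 11862 genes, and they are the same 87 genes as in the authors' deposited table of female-specific genes. The members were chosen by these group means, so that a higher level in females than in any other group is a description of how they were picked and carries no test.

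RNA was taken from whole bodies at 4 stages, with adults divided by sex, to find genes whose expression marks a stage or sex. Each of the 5 groups (female adults, male adults, pupae, larvae and eggs) had 3 libraries. The labels give no strain, age, rearing condition or mating status, and do not say how many animals went into a library. Replicates are described as biological in the study design, without a statement that each came from a separate collection. The p-values below therefore rest on the differences among these libraries, part of which may be technical.

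In female insects, ovaries and fat body turn over to egg production in adult life. The fat body makes yolk precursor proteins that growing oocytes take up, follicle cells around the oocyte lay down the eggshell, and nurse cells or the oocyte itself store maternal RNA that is later found in the laid egg. Genes high in females only can therefore belong to the making of yolk and shell, whose RNA need not reach the egg, or to the female tract, and genes of the germ line can also be found in eggs. The files name genes by identifiers alone and pair none with a gene name, so no member can be placed in any of these roles here. In whole bodies, a larger number of expressing cells and more RNA per cell cannot be told apart.

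Library totals ran from 16509113 to 32598781 counts. Levels below are CPM (counts relative to the library total, scaled between libraries by TMM, a method that lines up the bulk of genes) when a gene is followed across libraries, and TPM when genes are compared with each other. Larva replicate 1 stood apart from its group, with a Spearman's rho across genes of 0.852 and 0.821 with the other 2 larval libraries, which had a rho of 0.958 with each other. Its rho with the male libraries was 0.709 to 0.795. Male replicate 2 had a rho of 0.8975 and 0.9376 with male replicates 1 and 3, which had 0.9771 with each other. Males are the group against which eggs, pupae and larvae are compared below. The columns of larvae and adults share a name prefix in the count table, and eggs and pupae have a prefix each, so that for eggs and pupae a difference of prefix and of stage cannot be told apart.

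Members took 7.39%, 6.60% and 4.43% of all counts in female adult replicates 1, 2 and 3, a mean of 6.14% ± 1.53 (SD, n = 3). The corresponding mean was 0.540% ± 0.119 in males, 0.153% ± 0.148 in larvae, 0.110% ± 0.0941 in eggs and 0.0323% ± 0.00347 in pupae. A single member, CAG9855084.1, took 0.617%, 0.402% and 0.445% of counts in male replicates 1, 2 and 3. It took 0.0203%, 0.0677% and 0.269% in larva replicates 1, 2 and 3, and at most 2.59e-05% in eggs. The order of males, larvae and eggs in these means thus rests largely on that gene. The members' mean TPM in females ran from 2.81 to 7517, with a median of 110.2, and 47 members reached 100 TPM. Median levels of the same members were 3.59 TPM in eggs, 0.815 in pupae, 0.650 in males and 0.291 in larvae. The ratio of the female mean to the next highest group had a median of 9.44 and was under 10 in 45 members, whereas in 12 members it was 100 or more. No member was without counts in all 12 libraries of the other groups.

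**Figure D1:**
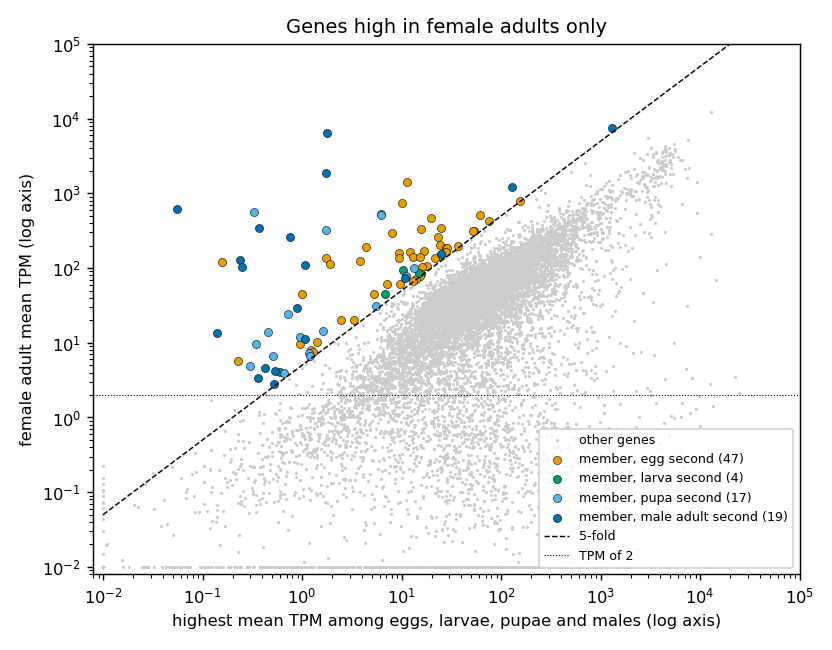
Female adult mean TPM (vertical, log axis) against the highest mean TPM of the other 4 groups (horizontal, log axis) for all 11862 genes, with values under 0.01 drawn at 0.01. Members lie above the dashed 5-fold line and the dotted line at a TPM of 2, are coloured by the group with the second highest mean, and reach 11414-fold at the far left.

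The edges of the rule cut through a continuum. The members nearest to the 5-fold limit were CAH1184847.1, at a ratio of 5.11, and CAH1168221.1, at 5.13. CAG9859617.1, at 4.96, and CAG9861159.1, at 4.88, fell just outside. For the limit on the female level, CAG9862418.1 was the lowest member at 2.81 TPM, and CAG9853686.1, at 1.74 TPM and a ratio of 14.2, was the nearest gene left out.

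The bulk of the members' counts came from a pair of genes, CAG9855084.1 and CAG9855083.1, which together held 67.3% to 77.3% of member counts in the female libraries. Among all genes, CAG9855084.1 ranked 2, 1 and 1 by counts in female replicates 1, 2 and 3, and CAG9855083.1 ranked 1, 2 and 4. Their identifiers are consecutive, and CAG9855085.1, which follows them, is also a member (it was singled out after its values were seen). Counts and TPM together give a relative length for each gene, and the 3 genes were alike in it, at 3.53, 3.47 and 3.35 times the median gene. Reads shared between near-identical copies could not be recognised.

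Despite their adjoining identifiers these genes had unlike profiles outside females. CAG9855084.1 stood at 18594, 18683 and 20659.8 CPM in female replicates 1, 2 and 3, and at 6421, 3808 and 4329 CPM in males. Larval libraries held it at 293, 924 and 2868 CPM, pupae at 25.1, 33.9 and 72.9 CPM, and eggs at 0.123, 0.201 and 0 CPM. It was thus abundant in both sexes, among the 16 most abundant genes of every male library, and each female library was above every other library. Mean CPM was 19312.5 in females and 4853 in males, and this gene was not called higher in females than in males. The fitted log2 difference was 1.99, under the 5-fold of the rule (adjusted p = 0.0568, edgeR). With a coefficient of variation of 6.05% it was the steadiest member among the female libraries.

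CAG9855083.1 was at 25153, 16257 and 6649 CPM in the female libraries and at 5.03, 9.91 and 4.50 CPM in males. In larvae it was at 0.611, 0.549 and 1.26 CPM, in pupae at 0.151, 0.348 and 0.198 CPM, and in eggs at 0.288, 0.134 and 0.0703 CPM. Its TPM ratio of females to males was 3566, against 5.78 for CAG9855084.1, and its level in female replicate 3 lay far below the other 2. CAG9855085.1 was lower in females, at 861, 936 and 739 CPM, with 1.39, 2.13 and 0.458 CPM in males and no count in eggs. Per length, female means were 7517 TPM for CAG9855084.1, 6347 TPM for CAG9855083.1 and 346 TPM for CAG9855085.1.

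Among the 19 members with males as the second highest group, 8 had a ratio of 100 or more and 7 a ratio under 10, so this set holds the sharpest and some of the least sharp members. CAG9856928.1 had the highest ratio of all, 11414. It was at 724, 501 and 146 CPM in females, and had 4 counts in all male, 2 in all pupal, 1 in all larval and 0 in all egg libraries. The next identifier, CAG9856929.1, was at 369, 332 and 43.3 CPM in females, with pupae second at 3.44, 1.89 and 0.859 CPM and no count in larvae. Both were named after their values were seen, as was CAG9854819.1, which had counts in only 1 of the 12 libraries outside females (0.401 CPM in egg replicate 2) and stood at 109, 96.2 and 84.0 CPM in females. Measured against 3 counts summed over a group, CAG9854819.1 was at least 2010-fold higher in females than in males, at least 2659-fold higher than in pupae and at least 1684-fold higher than in larvae. Such bounds cover counting error only.

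Eggs were the second highest group for 47 members, the largest of the 4 sets. Their median ratio was 8.45, against 32.9 for the members with males second and 12.8 for those with pupae second, and 27 of them had a ratio under 10. The egg-second member highest in females was CAG9857897.1, a gene of 0.180 times the median length. It was at 247, 258 and 49.1 CPM in females and at 2.01, 1.94 and 1.62 CPM in eggs, with 1.04 to 1.71 CPM in males, so that eggs hardly stood above males in it. CAG9856393.1, next in female level, was at 529, 912 and 504 CPM in females and at 431, 29.6 and 37.9 CPM in eggs. Its egg replicate 1 was close to the female libraries, while its egg replicates 2 and 3 were near the males, which stood at 24.5 to 36.4 CPM.

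This uneven spread over egg libraries was common among members. In 39 of 87 members (44.8%), egg replicate 1 held more than 2 times the TPM of each of the other egg libraries, and in 13 and 2 members egg replicates 2 and 3 did. Over all 8343 genes with an egg mean of at least 2 TPM the share was 3.62% for egg replicate 1 and 12.7% for egg replicate 2. These sets are unlike, since members were counted at any egg level. Some of the 39 rest on few reads, such as CAG9856285.1 with 4, 0 and 0 counts in egg replicates 1, 2 and 3. Nothing is read from the difference in shares. Egg replicate 1 gave 0.217% of its counts to members, and egg replicates 2 and 3 gave 0.0675% and 0.0439%. Egg age at collection is not in the labels. With egg replicate 1 left out 117 genes met the rule, 86 of them members, and with egg replicate 2 or 3 left out 73 or 71 members met it.

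Pupae came second for 17 members, whose median female level of 14.4 TPM was well below the 141 TPM of the egg-second members. The one highest in females, CAH1185589.1, was at 564, 564 and 118 CPM in females and at 0.341, 0.348 and 0.396 CPM in pupae. It had no count in males or larvae, and was at least 8819-fold higher in females than in males. CAG9863052.1 was at 382, 359 and 142 CPM in females, at 6.62, 2.36 and 6.18 CPM in pupae and at 2.02, 4.22 and 3.33 CPM in males, so that pupal and male libraries overlapped.

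Larvae came second for only 4 members, with ratios of 5.75 to 9.13. CAG9857547.1 was at 58.0, 86.3 and 53.1 CPM in females and at 9.95, 9.84 and 22.1 CPM in larvae, and pupae, males and egg replicate 1 overlapped with the larvae. CAG9855967.1 was at 82.7, 72.4 and 52.8 CPM in females and at 6.98, 48.0 and 19.2 CPM in larvae. Larva replicate 2 brought this gene near the lowest female library, and larva replicate 1 was below every male library.

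**Figure D2:**
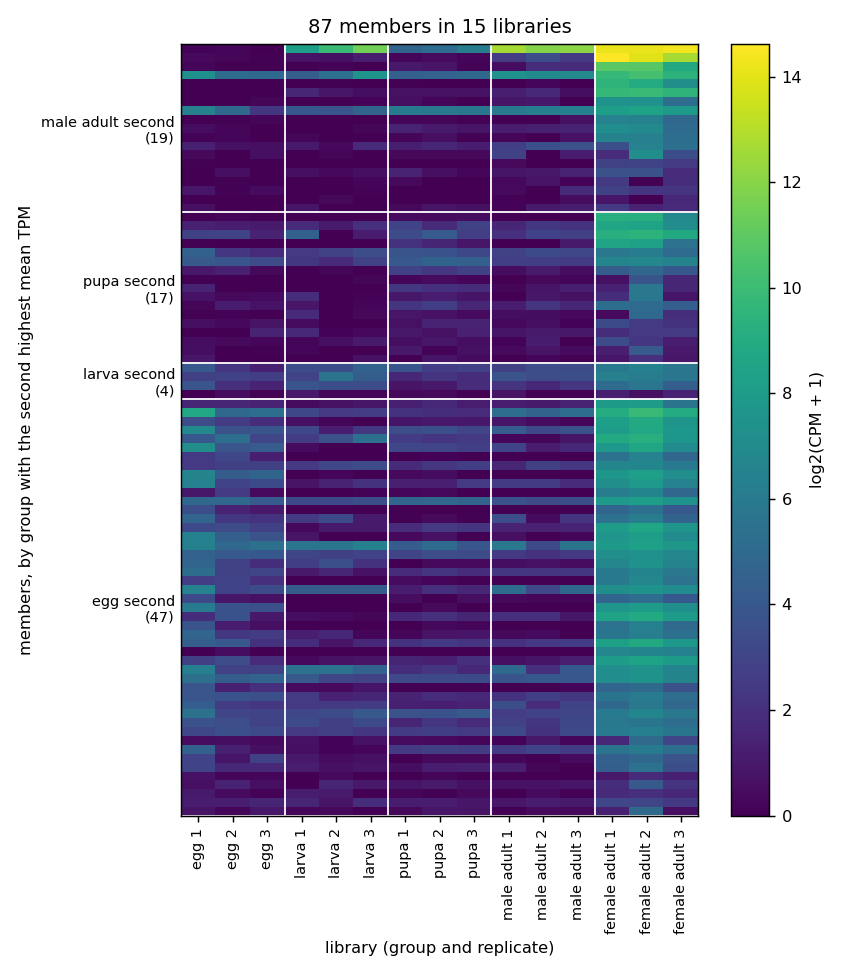
Level of each of the 87 members (rows, grouped by the group with the second highest mean TPM and ordered by female level) in the 15 libraries (columns), as log2(CPM + 1). The female columns are the brightest of most rows, egg replicate 1 is brighter than egg replicates 2 and 3 in many egg-second rows, and some rows are bright in female replicate 2 alone.

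**Figure D3:**
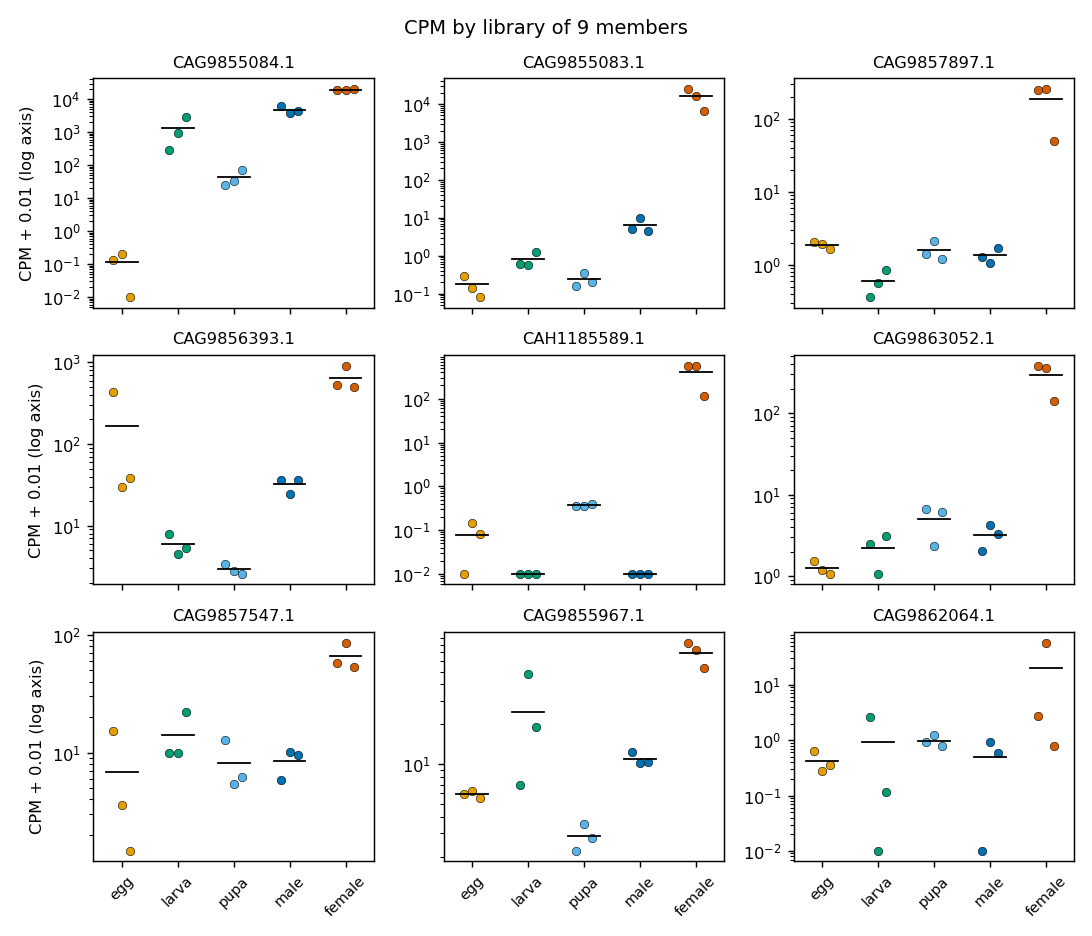
CPM + 0.01 (log axis) of 9 members in each library by group, with points for libraries and horizontal lines for group means. CAG9855084.1 is at 3808 CPM or more in every male library, CAG9856393.1 has a single egg library near the females, and CAG9862064.1 is high in 1 female library only.

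The members had a wider spread among the female libraries than the run of genes, given here as a description. They were chosen by the mean of these same libraries, which can favour genes lifted in 1 of them. Nothing is therefore read from the differences from all genes. The median coefficient of variation was 37.0% for the 70 members with a female mean of at least 10 CPM, against 18.5% for all 7571 genes at that level. Female replicate 3 held the lowest TPM of the 3 in 71 of 87 members and female replicate 2 the highest in 60, whereas over 9497 genes with a female mean of at least 2 TPM these shares were 45.2% and 38.4%. Relative to the mean of female replicates 1 and 2, the median member stood at 0.570 in female replicate 3, and the median of the 7571 genes at 0.896. Samples of the same group share no further labels, and neither mating status nor age of the females was available to set beside these values.

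The drop in female replicate 3 was deepest in the members with the highest ratios. The 12 members with a ratio of 100 or more had a median of 0.252 in female replicate 3 relative to the other 2, against 0.488 in the 30 with a ratio of 10 to 100 and 0.672 in the 45 under 10. In the sharpest set, female replicate 2 was at 0.926 of female replicate 1, whereas in the other sets it was higher than female replicate 1, at medians of 1.48 and 1.36. These medians are descriptions over genes that share the same 3 libraries. CAG9856481.1, at 101, 109 and 93.7 CPM, was with CAG9855084.1 the steadiest, with a coefficient of variation of 7.45%.

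In 8 members, female replicate 2 alone held at least 75% of the female TPM. No member rested on female replicate 1 or 3 in this way, and over the 9497 genes 0.147% rested on female replicate 2. Since the rule used the female mean, a gene could become a member through female replicate 2 alone. CAG9862064.1, the most variable member, was at 2.74, 57.8 and 0.782 CPM in females, against 0.760 to 1.24 CPM in pupae. CAG9862577.1 was at 1.54, 32.8 and 0.494 CPM, against 0.201 to 0.950 CPM in eggs. In these 2 members female replicates 1 and 3 were at or near the levels of the other groups, and the coefficient of variation was 158% in both genes. With female replicate 2 left out, 67 of the 87 members met the rule, and with female replicate 1 or 3 left out 84 or 85 did.

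**Figure D4:**
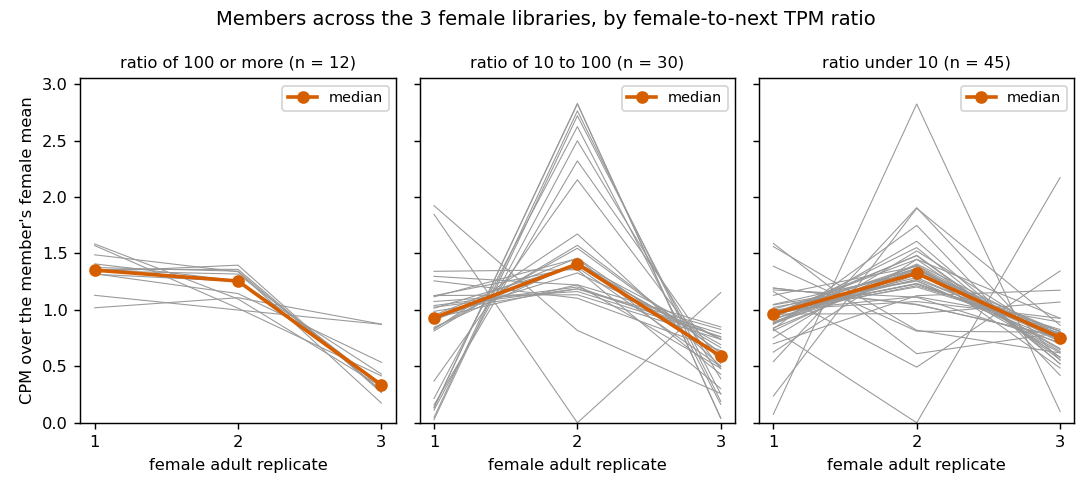
CPM of each member in the 3 female libraries, divided by its own female mean, in 3 panels by the ratio of the female mean to the next highest group. Grey lines are members and the orange line is the median, which is lowest in female replicate 3 in each panel, and a bundle of members with a ratio of 10 to 100 peaks in female replicate 2.

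On the count table, 72 of 87 members had every female library above all 12 other libraries, against 2.92% of the 11440 genes that passed a filter on low counts, and 79 had every female library above every male library, against 26.3%. Of the members, 86 passed this filter and CAG9856837.1 did not, with 22, 0 and 54 counts in females. In edgeR's quasi-likelihood test over all 11440 genes, 74 of the 86 were called higher in females than in males (adjusted p under 0.05 and at least 2-fold), against 11.7% of all genes. Called higher in females than in all 4 other groups at once were 55 members, against 0.839% of all genes. Since the rule used these contrasts, nothing is read from the counts. On the TMM scale the female mean CPM was at least 5 times the highest other mean in 55 members, and with scaling by library size alone in 77. TMM factors were 1.25 to 1.29 in the female libraries and 0.694 to 1.29 in the others.

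Contrasts between groups other than females were not fixed in direction by the rule, and each immature stage was therefore compared with males, the other adult group. Of the 86 members tested, 12 passed the filter on low counts only through the female libraries, against 43 of the 11440 genes. Such members had few counts in these contrasts. Some of them were still called in eggs or pupae, CAH1185589.1 and CAG9854818.1 among them, and are included in the numbers below. Shares of members called and their medians are therefore given beside those of all genes as a description, with nothing read from the difference. Eggs were higher than males in 29 of 86 members and lower in 7 (edgeR, adjusted p under 0.05 and at least 2-fold). These are 33.7% and 8.14% of the members, beside 26.7% and 35.7% of all genes tested. The median log2 difference was 0.55 for the members and -0.18 for all genes. Of the 29 members higher in eggs, 28 had eggs as the second highest group. That overlap is largely built in, since the second group comes from the means of the same libraries. Without egg replicate 1, 21 of the 29 were called higher and 15 members were called lower, the 7 among them. With the DESeq2 Wald test 29 were higher and 11 lower, beside 23.4% and 38.8% of all genes with an adjusted p.

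The member with the largest rise was CAG9856841.1, at 101, 18.7 and 25.6 CPM in eggs while male libraries held none of its reads, which puts eggs at least 943-fold above males (adjusted p = 0.000104, edgeR). In females it was at 212, 299 and 144 CPM, so that egg replicate 1 came near the lowest female library. The largest fall was that of CAG9855084.1, the most abundant member, which had 9 counts over all egg libraries and 4853 ± 1383 CPM in males (SD, n = 3), a log2 difference of -15.38 ± 1.31 (SE, adjusted p = 1.66e-06, edgeR). CAG9855083.1 was also lower in eggs than in males, by a log2 of -5.29 ± 0.68 (SE, adjusted p = 3.07e-05, edgeR), and CAG9855085.1 was at least 35.3-fold lower in eggs (adjusted p = 9.04e-05, edgeR). All 3 genes of consecutive identifiers were thus lower in eggs than in males.

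Pupae were higher than males in 9 of 86 members and lower in 11, or 10.5% and 12.8%, beside 17.2% and 18.4% of all genes tested. Median log2 differences were 0.00045 for the members and -0.10 for all genes. With library size alone 6 members were higher and 13 lower, and the median of all genes was -0.31. CAH1185589.1, the member with the largest called rise, had 30 counts over all pupal libraries and none in males. This gene passed the filter on low counts only through the female libraries, so nothing is read from its call. The largest measured fall was again that of CAG9855084.1, at 44.0 ± 25.4 CPM in pupae (SD, n = 3), a log2 difference from males of -6.79 ± 0.94 (SE, adjusted p = 0.000128, edgeR). CAG9854818.1 had the lowest fitted value, which depends on the prior count. It was at no count in pupae and at 0.289, 0 and 2.33 CPM in males. Like CAH1185589.1, it passed the filter on low counts only through the female libraries, so nothing is read from its call. Male replicate 3 carried that call, which was lost without it.

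Larvae were higher than males in 2 of 86 members and lower in 9, or 2.33% and 10.5%, beside 10.4% and 10.6% of all genes tested. The 2 that were higher were CAG9853899.1 and CAG9859134.1. CAG9853899.1 was at 5.15, 11.5 and 40.6 CPM in larvae and at 0.173, 0.142 and 0.791 CPM in males, a log2 difference of 5.63 ± 0.99 (SE, adjusted p = 0.00158, edgeR). It was also higher than in males in eggs, by 5.72 ± 0.99, and in pupae, by 3.52 ± 0.93 (log2 with SE, adjusted p = 0.000307 and 0.0081, edgeR). Males thus had the lowest level of this gene, which stood at 467, 571 and 206 CPM in females. These contrasts share the male libraries.

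Among the members called, the largest fitted fall from males to larvae was that of CAG9856285.1. It had 2 counts in larvae and 122 in males, a ratio of males to larvae of 51.1 (adjusted p = 0.0128, edgeR). Counting error alone gives this ratio an exact 95% interval from 13.9 to 427. In females it was at 1855, 1816 and 464 CPM. The count of members lower in larvae was 11 without larva replicate 1, 3 without larva replicate 2 and 6 without larva replicate 3, with 6, 3 and 4 of the 9 among them. The DESeq2 Wald test called 6 members higher and 16 lower in larvae, beside 12.6% and 12.4% of all genes with an adjusted p. Over the 3 contrasts, 47 of the 86 members were called in at least 1 and 39 in none, beside 78.7% of all genes tested that were called in at least 1.

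**Figure D5:**
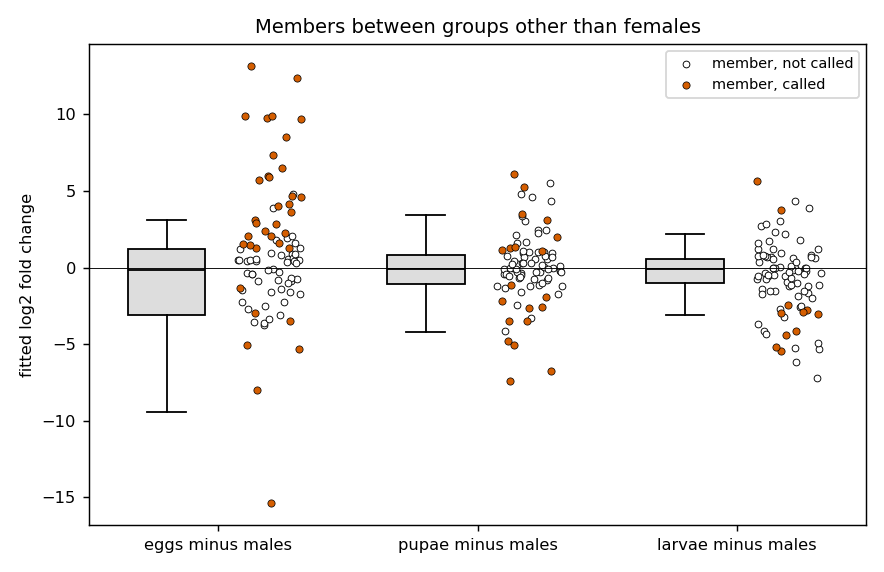
Fitted log2 fold changes (vertical) of eggs, pupae and larvae against males for all 11440 genes tested (boxes from the lower to the upper quartile with the median, whiskers at the percentiles 5 and 95) and for the 86 members tested (points, filled where called). Fitted values of genes with no count on a side depend on the model's prior count, and the lowest point, in the egg contrast, is CAG9855084.1.

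In relative length and identifiers the members were mixed. Relative length is not independent of the rule, since it was solved from the same group mean TPM. Their relative length had a median of 1.05 times that of all genes and quartiles of 0.678 and 1.55, against quartiles of 0.620 and 1.63 over 11794 genes. Identifiers starting with CAH made up 11.5% of the members and 8.73% of all genes. A consecutive identifier within the list was found for 7 members, in the runs CAG9855083.1 to CAG9855085.1, CAG9856928.1 and CAG9856929.1, and CAG9854818.1 and CAG9854819.1. The files do not say whether the numbering follows position in the genome. Within the last run levels were far apart, since CAG9854818.1 reached 6.47, 3.79 and 3.75 CPM in females.

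Individual members followed the list's mean profile to different degrees. Over the 15 libraries, Pearson's r of log2(CPM + 1) with the mean of all members had a median of 0.898 and ran from 0.486 to 0.985, where the 3 female libraries weigh heavily. Outside the list, CAG9858418.1 had the most similar profile, with an r of 0.944. It was at 47.8, 52.3 and 33.4 CPM in females and at 12.6 to 26.9 CPM in all other libraries, 2.58-fold above the next group in TPM. CAG9859983.1 followed with an r of 0.922 and a ratio of 3.0. In both genes every female library was above all 12 others, at smaller ratios than the rule asks for.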

How the data were processed

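RNA-seq of 15 whole-body libraries was used, 3 each of female adults, male adults, pupae, larvae and eggs, grouped by the sample titles. Per the labels' protocols, TRIzol was used for extraction and an Illumina TruSeq kit for the libraries. Reads went through fastp, HISAT2 and featureCounts, which are the tools in the submitters' processing notes. Their versions, the genome build and whether counting used strand are not given in the sources available. The authors deposited raw read counts per gene, their TPM averaged over the libraries of each group, and lists of specific genes, which are identifiers and no other number, score or value. Members and lists were chosen with earlier results of these data known.

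Counts were filtered with filterByExpr (11440 genes tested, 86 of 87 members), scaled by TMM and tested with edgeR 4.0.16 in R 4.3.3 (quasi-likelihood, robust, 5 groups in 1 model), with Benjamini-Hochberg adjustment over all genes tested. A call needed an adjusted p under 0.05 and at least 2-fold. Each SE of a log2 difference is the size of that difference over the square root of the test's F statistic. These SE are approximate, most of all where counts are few. The pipeline was tested on simulated data. Alternatives were DESeq2 1.42.0, other scalings, no filter, no minimum fold, a replicate block and each library left out. Where a group had no counts, the fold is a bound against 3 counts summed over that group.

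Library scales and relative lengths were solved from counts and group TPM of genes with over 200 counts in every library. TPM rebuilt from them by library differed from the deposited means by a median of 0.0599% (99th percentile 5.11%) where a group had at least 30 counts, and returned the same 87 members. That likeness is largely built in, since each relative length was solved from the deposited TPM of the same gene. No sequence was printed, as no reference was used. Named genes are, by female level, the 2 highest members overall and per second group. Also named are the 2 with the largest and smallest variation in females and those at the limits of the rule. To these were added the called members with the largest rise and fall per contrast with males, and the 2 most similar genes outside the list. Others are said to have been chosen after their values were seen. The count of members resting on female replicate 2 and the rule applied to TPM by library were added after the data were seen.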

Additional observations from a re-analysis of the deposited data

How the results depend on the processing

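Of 204 alternative values for the counts and shares over the members, 198 stayed close to the reported value (counts within 1.5 times, the share within 1 SD). The 204 include counts from contrasts that the rule used, and many settings left out a library of a group outside the contrast. The 198 are therefore no measure of stability. Without egg replicate 1, 15 members were lower in eggs than males, against 7. Without larva replicate 2, 3 were lower in larvae than males, against 9. With the DESeq2 Wald test 11 members were lower in eggs than males, 6 were higher and 16 lower in larvae than males, and the cause was not tested. Without its most abundant gene the list took 3.68% of female counts, by construction. Leaving out each library in turn gave 42 to 68 members at 5-fold in mean CPM, 61 to 78 higher in females than males and 37 to 67 higher than in each other group, with the lowest of each without female replicate 2 (for females against males, also without male replicate 3). Against males, 21 to 32 were then higher and 6 to 15 lower in eggs, 7 to 10 higher and 8 to 12 lower in pupae, and 2 to 3 higher and 3 to 12 lower in larvae. The rule kept 67 to 87 members, and the share of female counts ran from 5.51% to 6.99%.

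With a replicate block, 70 members were higher in females than males, 54 than in each other group and 26 in eggs than males. Same-numbered libraries deviated together, at a correlation over 0.1, in 0 of 12 pairs with males and in 1 of 21 with either adult group. That pair was larva and female adult replicate 3, at 0.118. Between larvae and pupae, which are not compared, all 3 pairs did (0.264 to 0.526), and 5 of 15 libraries correlated best with one of their own number. From 3 libraries a group, such values cannot settle whether the numbers pair the libraries. Single members were followed where they had the largest called rise or fall in a contrast with males. Of 126 alternative values for them, 125 kept direction and call, the exception being CAG9854818.1 (log2 of -4.78 without male replicate 3). These members were picked as extremes of the same data, and many settings left out a library of a group outside the contrast. Nothing is therefore read from that share. Library size alone moved the median log2 of all genes from -0.18 to -0.02 in eggs, from -0.10 to -0.31 in pupae and from -0.09 to -0.46 in larvae, each against males. With 3 libraries a group, members of few counts were little resolved.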
